A study of Mus musculus with 3 samples.

Results

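The genes described here are the endocytic adaptor gene Dab2 and 5 genes of endocytic receptors: Vldlr, Lrp1, Lrp2, Lrp8 and Cubn. They are 6 of 19935 genes that could be named on the arrays, and the set was proposed because Dab2 was much higher in both MAFK clones than in mock cells. That comparison therefore chose the genes, and their differences from mock are given as a description with no test. Where a gene had several probe sets, the brightest on average stood for it. Expression was measured on 3 Affymetrix arrays in NMuMG, a mouse cell line from mammary epithelium. The mock cells carried the pCAGIP vector (n = 1). The MAFK cells carried pCAGIP-FLAG-MafK, of which clone 4 and clone 10 were each put on 1 array (MAFK, n = 2). All of the cells were grown in puromycin. Both MAFK lines are clones while mock is not labelled as one, so an effect of MAFK and a change that arose in cloning cannot be told apart. The mock spread is unknown, and nothing says that the clones were grown or extracted apart. Mafk itself read 8.49 in mock against 8.74 (clone 4) and 8.59 (clone 10), which is not 2-fold apart. Whether its probe set reads the FLAG-tagged transgene was not analysed here, so these arrays do not check the labels and the groups are named by them.

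LDL receptor family members carry ligand-binding repeats outside the cell and, in many of them, a short NPXY sequence in the tail (N, P, any residue, Y). Adaptors such as DAB2 bind that sequence with a phosphotyrosine-binding (PTB) domain and link the receptor to clathrin and its AP-2 adaptor, so that receptor and ligand enter in coated pits. LRP2 (megalin) and cubilin take up filtered proteins in the kidney tubule with DAB2 beneath them. Cubilin is built of CUB domains, is not itself of the LDL receptor family and is held at the membrane by amnionless (AMN). VLDLR and LRP8 also pass the Reelin signal to the related adaptor DAB1. MAFK is a small MAF protein that binds DNA alone or with CNC factors and has no activation domain of its own.

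Values are log2 RMA expression, where a difference of 1 is a 2-fold difference, and the array medians were 6.89 (mock), 6.92 (clone 4) and 6.93 (clone 10). Levels of different genes are not compared, because probe sets differ in brightness and the values are not per length. No detection p-values were used, so the medians serve as a rough guide to signal. A reading below them may lie near background, and a fold against such a reading is only the ratio of the RMA values, not a measured ratio of transcript. A gene is called at least 2-fold apart where both clones differed from mock by that much in the same direction. Of all genes, 598 did so (3.0%), with 237 higher (1.19%) and 361 lower (1.81%). Arrays often had the same value: 55.5% of genes were equal in both clones and 34.3% on all arrays. Median polish, the last step of RMA, can give such ties, but their source was not tested.

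Dab2, which codes for the clathrin adaptor, read 5.87 in mock against 9.77 (clone 4) and 10.30 (clone 10). Mock lay below its array median and both clones well above theirs. The clones were higher by 3.90 and 4.43 on the log2 scale, or 15.0-fold and 21.6-fold, with a mean of 10.03 ± 0.37 (SD, n = 2) in MAFK. The mock value may lie near background, which limits the folds and the rank. By the smaller of its 2 differences, Dab2 had rank 9 from the top of all genes. In these bulk RNA samples, more cells with the transcript and more transcript per cell cannot be told apart.

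A second Dab2 probe set did not share this difference. It read 5.12 in mock against 5.14 (clone 4) and 5.16 (clone 10), below the median on every array. The annotation ties it to 1 cDNA accession and to no RefSeq mRNA, whereas the probe set used here is tied to 8 accessions, 4 of them RefSeq mRNAs. Taking the mean of both probe sets lowered the Dab2 difference to 2.10. Which exons either set covers was not analysed here.

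**Figure D1:**
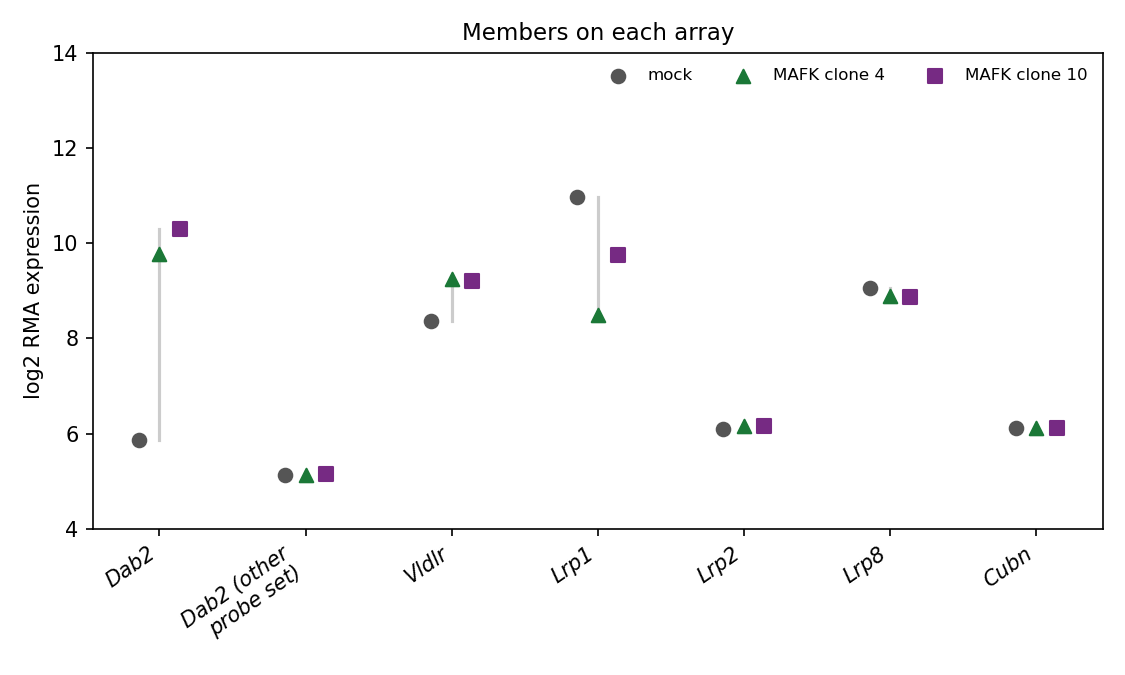
Log2 RMA expression (vertical axis) of each gene on the mock array (circles), clone 4 (triangles) and clone 10 (squares), with the second Dab2 probe set beside the first; grey lines span the 3 arrays. Dab2 lies at 5.87 in mock and at 9.77 and 10.30 in the clones, Lrp1 lies highest in mock at 10.97, and Lrp2 and Cubn stay near 6.1 on all arrays.

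RefSeq lists 2 start sites for Dab2, far apart on the same strand, and the windows at both are shown because the deposited values do not separate the transcripts that use them. Each window runs from 250 bases before the start to 50 from it on (build GRCm38.p6, 5′ to 3′). The Lrp1 window, at its 1 listed start, is shown beside them as that of the receptor gene with the opposite difference. Capitals mark 2 motifs, each searched on both strands. TGACNNNGC is the core of the element that MAF and CNC factors bind. TGCTGA, the sequence that begins the MAF recognition element, was added after the windows had been read. The 2 motifs overlap in none of these windows.

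Dab2 first start, chr15:6299539-6299838, plus strand: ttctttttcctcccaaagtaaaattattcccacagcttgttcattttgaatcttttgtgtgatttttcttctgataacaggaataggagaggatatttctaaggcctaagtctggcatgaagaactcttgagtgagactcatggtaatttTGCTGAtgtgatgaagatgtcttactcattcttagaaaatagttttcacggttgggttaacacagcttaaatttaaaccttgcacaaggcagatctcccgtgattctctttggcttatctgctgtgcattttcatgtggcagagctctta
Dab2 second start, chr15:6386498-6386797, plus strand: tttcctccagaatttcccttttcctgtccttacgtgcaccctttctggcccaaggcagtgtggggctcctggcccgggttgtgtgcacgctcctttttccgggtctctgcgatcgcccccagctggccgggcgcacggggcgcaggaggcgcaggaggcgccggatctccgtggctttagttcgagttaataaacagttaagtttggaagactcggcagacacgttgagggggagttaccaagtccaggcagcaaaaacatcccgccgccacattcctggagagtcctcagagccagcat
Lrp1, chr10:127621099-127621398, minus strand: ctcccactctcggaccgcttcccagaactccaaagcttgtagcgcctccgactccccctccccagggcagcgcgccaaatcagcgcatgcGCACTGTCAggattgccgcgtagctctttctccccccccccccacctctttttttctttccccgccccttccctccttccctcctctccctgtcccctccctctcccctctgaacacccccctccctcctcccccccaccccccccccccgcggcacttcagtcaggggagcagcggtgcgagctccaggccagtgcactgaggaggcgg

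Neither Dab2 window held TGACNNNGC, which 12.4% of 32851 windows of the same length hold. The first Dab2 window held 1 TGCTGA, beginning at base 151 of the window, and 19.5% of all windows hold that motif. The Lrp1 window held 1 TGACNNNGC, on the opposite strand, as GCACTGTCA from base 91. Over the 10 windows of all 6 genes, 2 held TGACNNNGC (Lrp1 and Lrp8) and 3 held TGCTGA (Dab2, Lrp2 and Cubn). The Dab2 windows also differed in base composition, with 37.7% G and C at the first start and 59.3% at the second, against a median of 52.7% over all windows. A match describes letters only, and binding was not measured.

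The genes beside Dab2 on chromosome 15 did not share its difference. The nearest measured protein-coding genes on one side, Ptger4 (a prostaglandin E receptor) and Ttc33, differed by -0.46 and -0.20 in the mean of the clones. On the other side, the complement gene C9 read 5.07 on all arrays and Fyb differed by 0.07, both of them below the medians throughout. Of 752 measured genes of that chromosome, 11 were at least 2-fold higher and 18 lower, together 3.86% against 3.0% of all genes.

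The genes with the most similar pair of differences were found by a rule. Among 10520 genes that reached the probe set median on some array, the nearest to Dab2 by the larger gap in either clone were F2r, Cytip, Adgre5, Dynlt3 and Nlrp2, with gaps between 0.25 and 0.50. F2r, the thrombin receptor gene, read 6.09 in mock against 10.25 (clone 4) and 10.29 (clone 10). Adgre5, an adhesion G protein-coupled receptor gene, read 5.87, 10.14 and 10.40 in the same order. Like Dab2, both were below the median in mock, so the same limit applies to their differences. They reached the probe set median in the clones only, which the search allowed. The likeness to Dab2 is over 3 arrays, of which 1 is the mock array that both differences share. Within these genes Dab2 had the largest gap between the clones, 0.53 higher in clone 10. A larger gap between the clones was seen in 1.81% of all genes.

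Among the receptor genes, Lrp1 was lower than mock, Vldlr was higher by less than 2-fold, and the others were near mock. Lrp1, which codes for a large receptor that clears proteases, protease inhibitors and lipoprotein remnants, was highest in mock. It read 10.97 in mock against 8.50 (clone 4) and 9.75 (clone 10). Both clones were lower, by 5.51-fold in clone 4 and 2.32-fold in clone 10, with a mean of 9.13 ± 0.88 (SD, n = 2) in MAFK and all 3 arrays above their medians.

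Lrp1 was also the gene of the set on which the clones disagreed most. Clone 10 was higher than clone 4 by 1.25, or 2.38-fold, and 47 of 19935 genes (0.236%) had a larger gap. Gaps of at least 2-fold were seen in 88 genes (0.441%), with clone 10 higher in 44 (0.221%). With 1 array a clone, no test of this gap was possible. None of its 4 nearest measured neighbours on chromosome 10 was 2-fold apart: Shmt2 differed by 0.08 and -0.36, Nxph4 by 0.04 in both clones, Stat6 by -0.10 and 0.04, and Nab2 by 0.57 and 0.49.

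Vldlr, the receptor for very-low-density lipoprotein and Reelin, differed from mock in the same direction as Dab2 and by much less. It read 8.37 in mock against 9.25 (clone 4) and 9.20 (clone 10). The clones were 1.84-fold and 1.77-fold higher, so Vldlr was not 2-fold apart, and they differed from each other by 0.06. Of its 4 nearest measured neighbours, Smarca2 was the highest, at 0.10 in clone 4 and 0.03 in clone 10, and Pum3 differed by -0.18 (clone 4) and -0.65 (clone 10).

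Lrp8, the other Reelin receptor gene, was close to mock. It read 9.07 in mock against 8.90 (clone 4) and 8.87 (clone 10), which is 1.13-fold and 1.15-fold lower. Mock was the highest array, and the clones lay 0.02 apart.

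Lrp2, the gene of megalin, and Cubn, the gene of cubilin, were below the array medians throughout. Lrp2 read 6.10 in mock and 6.15 in both clones, a difference of 0.05. Cubn read 6.13 on all arrays, as is seen for 34.3% of genes. These values show no signal clearly above the low end of the arrays for either gene, and they do not show that the transcripts were absent. Lrp2 and Cubn both lie on chromosome 2, where Dhrs9, the nearest measured gene on one side of Lrp2, was 2-fold or more higher in both clones (1.99 and 1.22, limma adjusted p = 0.224).

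Over the 6 genes, 1 was higher by 2-fold or more in each clone (Dab2), 1 was lower (Lrp1) and 4 were neither, and the median difference was 0.02 in each clone, where that of all genes was 0. Since the set was chosen on this comparison, the background of 3.0% is given for scale. Both clones are set against the same mock array, so their likeness in direction is in part that of the shared array.

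**Figure D2:**
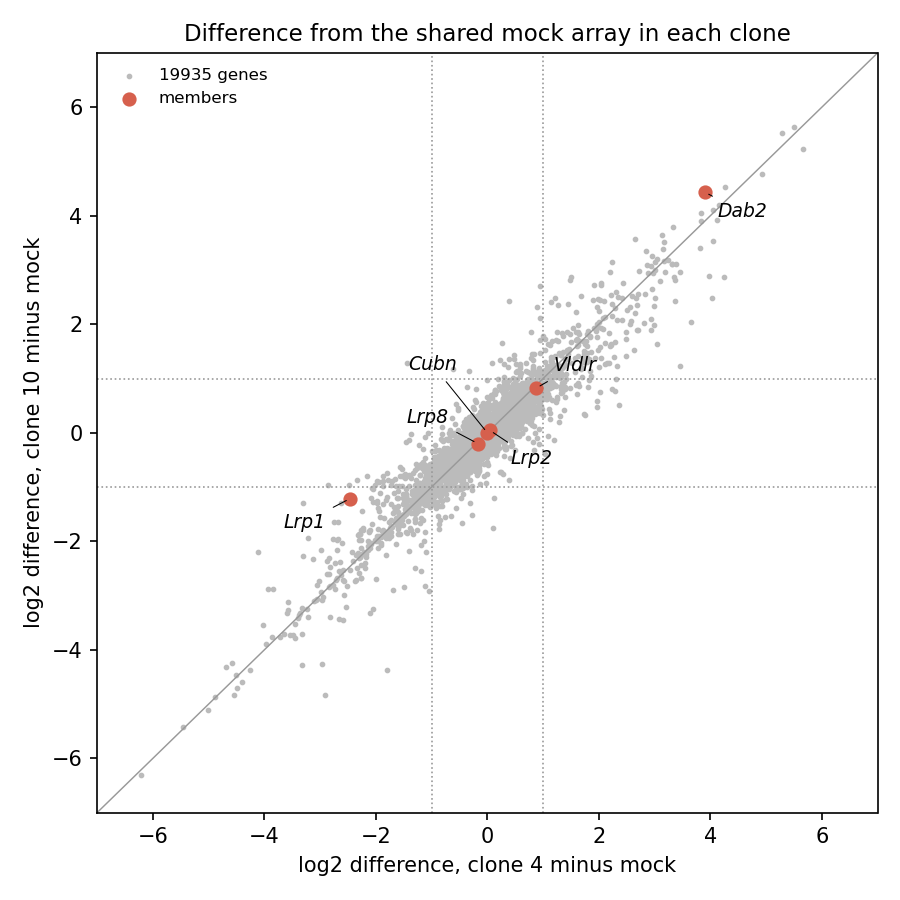
Log2 difference from mock in clone 4 (horizontal axis) and in clone 10 (vertical axis) for 19935 genes (grey) and the 6 genes of the set (red); dotted lines mark a 2-fold difference and the diagonal equal differences. Dab2 lies at 3.90 and 4.43 and Lrp1 off the diagonal at -2.46 and -1.21, while Lrp2, Lrp8 and Cubn lie near 0.

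The genes that work with the set were taken from 8 lists of 141 genes, of which 133 were measured and the rest were not analysed here. Both clones were at least 2-fold higher for 2 of the 133 and lower for 5, or 5.26% against 3.0% of all genes, and 29 were equal on all arrays. The words rose and fell are kept for such genes that also had a limma adjusted p under 0.05, which were 232 of all genes (1.16%), 80 upwards (0.401%) and 152 downwards (0.762%). By that test 1 of the 133 rose and 0 fell. At an unadjusted p under 0.05, limma called 15 of the 133 higher and 17 lower, beside 1834 and 1647 of all 19935 genes. With its usual prior limma called 16 of the 133 higher and 12 lower after adjustment, beside 2240 and 1313 of all genes. In an added fit, after a second quantile normalization with the prior of the same genes, 0 of all genes passed limma (1778 higher and 1568 lower at an unadjusted p under 0.05), so each rise or fall named here is lost in it.

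Other receptors of the LDL receptor family were near mock or lower. Of 12 measured, 0 were at least 2-fold higher and 2 were lower, with medians of -0.18 (clone 4) and -0.11 (clone 10) against mock. Lrp11 read 8.69 in mock against 6.72 (clone 4) and 6.91 (clone 10). It was 3.67-fold lower (limma adjusted p = 0.0517) and just missed the threshold, with both clones slightly below their medians. Sorl1, which codes for a sorting receptor that steers cargo between the Golgi and endosomes, read 9.50 in mock against 8.04 (clone 4) and 8.15 (clone 10). It was 2.64-fold lower (limma adjusted p = 0.0526). For both genes the clones lay closer to each other than to mock, and both passed with an intensity trend, with the usual prior or with low genes left out (adjusted p between 0.0304 and 0.0499).

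Among the same receptors, Lrp10 was 1.60-fold lower (limma adjusted p = 0.211). The Wnt co-receptor gene Lrp5 was 1.30-fold lower (limma adjusted p = 0.456) and Ldlrad3 1.19-fold lower (limma adjusted p = 0.336). The other 7 had mean differences from -0.20 for Lrp12 to 0.18 for Ldlrad1.

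The other cargo adaptors with a PTB domain did not share the Dab2 difference. Of 9 measured, 0 were 2-fold apart in either direction, and mean differences ran from -0.57 for Shc1 to 0.39 for Numbl. Shc1, an adaptor of receptor tyrosine kinases, read 10.55 in mock against 9.99 (clone 4) and 9.98 (clone 10) (limma adjusted p = 0.105). Numb, an adaptor known for Notch and integrin traffic, differed by -0.12 (limma adjusted p = 0.763) and Apbb2 by -0.27 (limma adjusted p = 0.563). Dab1, the neuronal relative of Dab2, read 5.91 in mock and 5.96 in both clones, below the array medians. It is named for its role, after its values were seen.

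Chaperones and partners of the receptors were near mock. Of 6 measured, 0 were 2-fold apart. Lrpap1, whose product keeps the receptors free of ligand in the endoplasmic reticulum, read 9.79 in mock against 9.76 (clone 4) and 9.96 (clone 10). Snx17, a sorting nexin that returns receptors with an NPXY sequence to the surface, differed by 0.08, and the chloride exchanger gene Clcn5 by -0.17. Each had a limma adjusted p of at least 0.606. Amn, the gene of the membrane anchor of cubilin, read 7.07 in mock against 7.39 (clone 4) and 7.41 (clone 10), and was named after its values were seen.

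Ligand genes included the largest differences of the lists. Of 22 measured, 0 were at least 2-fold higher and 3 were lower, with a median difference of 0 in both clones. Apob, the structural protein gene of LDL and VLDL particles, read 9.15 in mock against 6.33 (clone 4) and 6.67 (clone 10), so that both clones were below their medians. It was 6.27-fold lower (limma adjusted p = 0.0583). Rbp4, whose product carries retinol and is taken up by megalin, read 11.77 in mock against 9.72 (clone 4) and 8.53 (clone 10). It was 6.28-fold lower with a wide spread (limma adjusted p = 0.205). Tfpi, a coagulation inhibitor cleared by LRP1, read 7.53, 6.37 and 6.46 and was 2.17-fold lower (limma adjusted p = 0.0597), again with both clones below their medians. Apob and Tfpi passed with an intensity trend (adjusted p of 0.0379 and 0.0391) and with the usual prior (0.0436 and 0.0295), and Tfpi after a second quantile normalization (0.0486). Plau, the urokinase gene, had the highest mean difference of the list, 0.82, and read 5.92 (mock), 6.43 (clone 4) and 7.04 (clone 10), with mock and clone 4 below their medians.

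No measured gene of the coat that DAB2 joins was 2-fold apart. Of 37 measured genes of clathrin and its accessory proteins, 9 were equal on all arrays and the median difference was 0 in both clones. Cltc, the clathrin heavy chain gene, read 11.44 on all arrays. Ap2m1, a subunit of AP-2, read 12.05 in mock against 11.84 (clone 4) and 11.92 (clone 10) (limma adjusted p = 0.475). Hspa8, whose product strips the coat, differed by -0.18 (limma adjusted p = 0.380). Mean differences ran from -0.55 for Myo6, the gene of the motor protein that binds DAB2, to 0.49 for Epn1.

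Endosomal genes and signalling partners were also near mock. Of 23 sorting and recycling genes 0 were 2-fold apart, with mean differences from -0.54 for Rab11a to 0.43 for Ehd1. Rab7 and Rab5c differed by 0.02 and 0.07 in the mean of the clones. Ehd2 had a mean of 0.00, from differences of -0.16 (clone 4) and 0.17 (clone 10). Of 16 signalling partners of DAB2 and DAB1, 0 were 2-fold apart and 7 were equal on all arrays, among them the adaptor gene Crk at 10.63. Asap1 differed by 0.11 and the phosphatase gene Ppp1ca by 0.00.

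In the list of caveolae, membrane pits formed without clathrin, 2 of 8 genes were higher by 2-fold or more in each clone and 0 were lower. Cavin3 read 7.48 in mock against 8.95 (clone 4) and 9.02 (clone 10). It rose 2.83-fold (limma adjusted p = 0.0414), and was the 1 gene of the 8 lists to pass. In the added fit its adjusted p by limma was 0.0809. Cavin2 read 5.96, 7.27 and 7.40 and was 2.60-fold higher (limma adjusted p = 0.0561, and between 0.0335 and 0.0978 under the alternatives), with mock below its median. Cav1, the structural gene of caveolae, was 1.38-fold lower (limma adjusted p = 0.136), Pacsin2 1.35-fold higher (limma adjusted p = 0.14) and Cavin1 differed by 0.01.

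**Figure D3:**
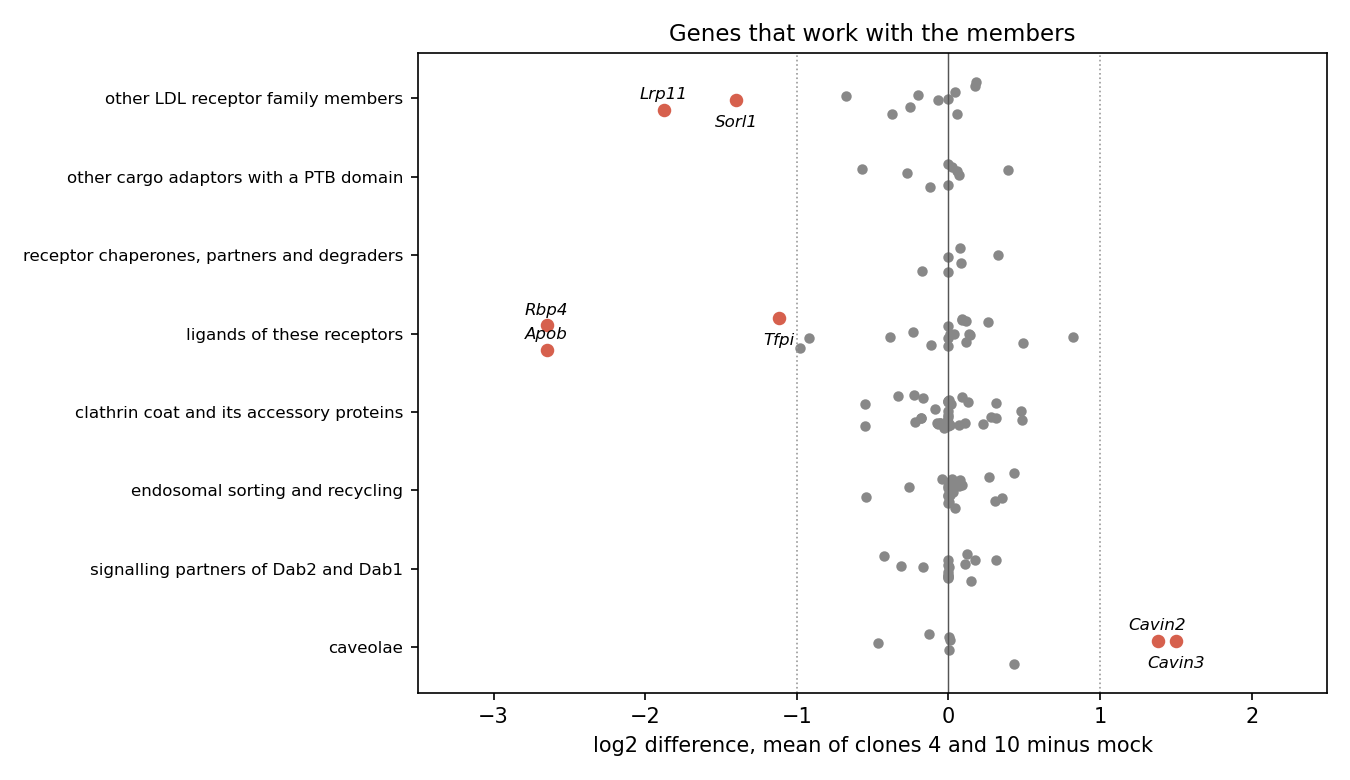
Log2 difference between the mean of both clones and mock (horizontal axis) for each gene of the 8 lists (rows; vertical scatter within a row has no meaning), with genes that differed 2-fold or more in each clone in red and dotted lines at a 2-fold difference. The 37 clathrin genes lie between -0.55 and 0.49, while Apob and Rbp4 lie at -2.65.

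**Figure D4:**
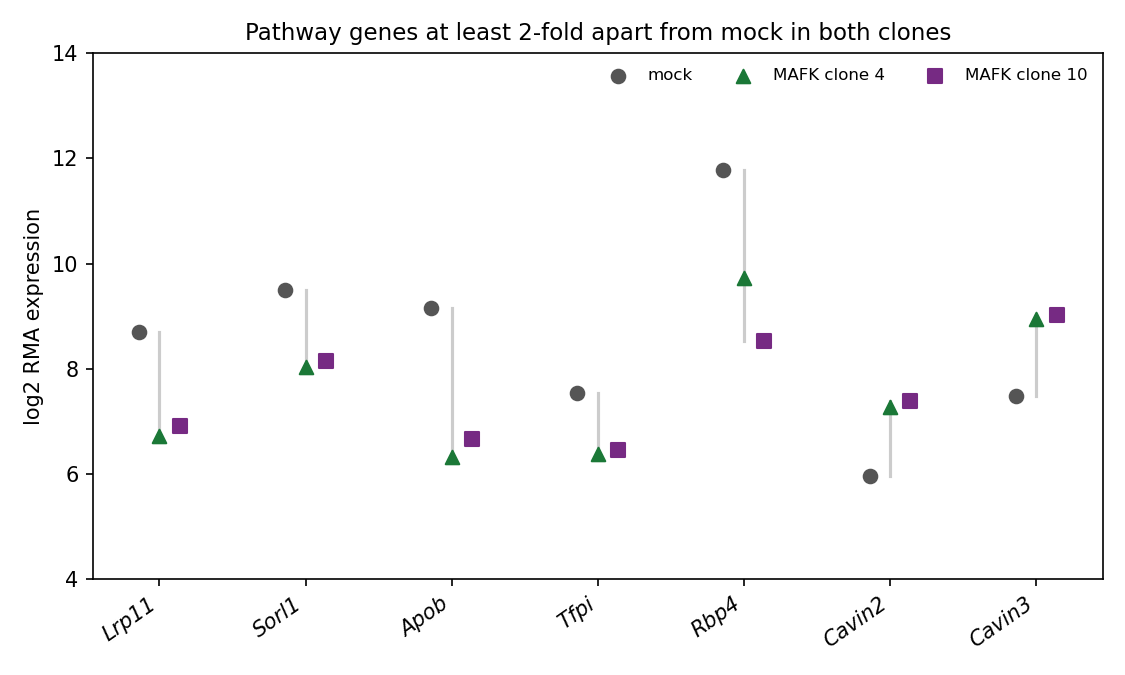
Log2 RMA expression (vertical axis) on the mock array (circles), clone 4 (triangles) and clone 10 (squares) of the 7 list genes whose clones both differed 2-fold or more from mock; grey lines span the 3 arrays. Mock is highest for Lrp11, Sorl1, Apob, Tfpi and Rbp4 and lowest for Cavin2 and Cavin3.

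Dab2 is also known from macrophages, extraembryonic endoderm and the kidney tubule, and markers of those cells were read beside it. Of 12 macrophage markers 0 were at least 2-fold higher and 1 was lower (Cd14, -2.07, limma adjusted p = 0.0907), with a mean level of 6.32 (mock), 6.17 (clone 4) and 6.23 (clone 10). Ptprc, Adgre1 and Itgam read 5.81, 5.22 and 5.67 on all arrays, below the medians. Of 12 markers of extraembryonic and definitive endoderm, 9 were not 2-fold apart, 1 was higher (Lamb1, 2.21, limma adjusted p = 0.0542) and 2 fell. These were the transcription factor genes Hnf4a, which read 10.13 in mock against 7.15 (clone 4) and 7.05 (clone 10) (limma adjusted p = 0.0293), and Foxa2, which differed by -1.57 (limma adjusted p = 0.0351). Foxa2 read 7.46 in both clones, so its standard error comes from the prior alone. The mean level of that list was 7.47 (mock), 7.26 (clone 4) and 7.23 (clone 10). Of 8 tubule markers, which include Lrp2 and Cubn, 1 rose, the water channel gene Aqp1, by 4.85 (limma adjusted p = 0.0256). The other 7 were not 2-fold apart, and the median difference of the list was 0.04 (clone 4) and 0.02 (clone 10). The mean level of this list was 6.41 (mock), 7.09 (clone 4) and 7.07 (clone 10), a change that comes mostly from Aqp1.

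Of 10 fibroblast markers 1 rose (Pdgfrb, 3.34, limma adjusted p = 0.0461) and 1 was lower (Dcn, -1.97, limma adjusted p = 0.0711). The other 8 were not 2-fold apart, with list medians of 0.10 (clone 4) and 0.12 (clone 10) against mock. The mean level of the list was 6.46 (mock), 6.71 (clone 4) and 6.76 (clone 10). The 8 endothelial markers had 0 at least 2-fold apart and a mean level between 6.26 and 6.31. Of 12 mammary epithelium markers, Cdh1 (E-cadherin) fell by 4.60 (limma adjusted p = 0.0282), and the mean level was 8.40 (mock), 7.92 (clone 4) and 7.89 (clone 10). Krt8 read 13.67 in mock against 13.18 (clone 4) and 13.31 (clone 10), whereas Epcam read 5.58 and Esrp1 5.48 on all arrays, below the medians. The part of these markers in the Dab2 and Lrp1 differences was not tested.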

How the data were processed

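RNA of 3 NMuMG samples (mock, clone 4 and clone 10) was measured on Affymetrix arrays. The deposited values are log2 expression; RMA is the 1 tool the submitters' processing notes name, without a version, and build and filters are not given in the sources used here. Of 28815 probe sets, 21780 had 1 gene symbol in the platform annotation, 1605 several and 5430 none. A RefSeq table of GRCm38.p6 gave current symbols for 21689 probe sets, matched on Entrez identifier. The brightest probe set on average stood for each gene. Promoter windows come from RefSeq (GRCm38.p6), which held all 6 genes.

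Differences were taken from mock in each clone. Limma 3.58.1 (R 4.3.3, two-sided, Benjamini-Hochberg over 19935 genes) used 1 residual degree of freedom. Its prior (1.93 degrees of freedom, SD 0.0694) came from the 8873 genes whose clones differed, because ties gave the others a variance of 0, so that tied genes have the smallest standard error (0.0690). The fit was tested on simulated data. There the mock noise was drawn from the spread between the clones, so the simulation cannot check the unknown mock spread. The p-values rest on the spread between the clone arrays, moderated by the prior, and for tied genes on the prior alone. They do not measure the spread of mock. The clone spread may be technical, and the number of clone arrays limits the precision.

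The genes of the set, the lists and the tests were chosen with earlier results of these data known. Named beside the set were list genes 2-fold or more from mock in each clone (up to 5 a list), the 3 with the highest mean where fewer than 3 were, and the 5 genes nearest to Dab2, leaving out predicted genes, smell receptors, small RNAs and immune receptor segments; others are said to be named later, and chromosomal neighbours, markers and the extremes of lists were added after the values were seen. Alternatives were another normalization, centring, filter, probe set rule, fold (1.5) or prior, and each clone left out.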

Additional observations from a re-analysis of the deposited data

How the results depend on the processing

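The directions of Dab2, Vldlr, Lrp1 and Lrp8 held under each alternative run. Leaving out a clone gives the other clone's own difference, which for Lrp1 was -1.21 without clone 4 and -2.46 without clone 10. Limma could not be run without a clone, since no residual degree of freedom is left. The mean of both probe sets lowered the Dab2 difference from 4.17 to 2.10. A second quantile normalization and centring on the median gave 0.0109 and 0.0103 for Lrp2, -0.16 and -0.22 for Lrp8 and -0.0373 and -0.0348 for Cubn, so that the small differences of Lrp2 and Cubn have no settled size. At a fold of 1.5, 507 genes were higher and 723 lower. Limma's counts depended on the prior: with the usual prior 2240 genes were higher and 1313 lower (of the list genes, 16 and 12). With an intensity trend 245 were lower (of the list genes, 2 higher and 4 lower), and with low genes left out 2 list genes were lower. A second quantile normalization breaks the ties between the clones, and limma then called 1395 higher and 872 lower (of the list genes, 12 and 7). With the prior from the genes whose deposited values differed, a choice made after seeing the data, it called 0 higher and 0 lower (of the list genes, 0 and 0), against 1778 and 1568 at an unadjusted p under 0.05. In other settings the counts stayed within 1.5 times. Signal over background limits the Dab2 value in mock, and with it the Dab2 folds, and the values of Lrp2, Cubn and the second Dab2 probe set on all arrays, all below the array medians. No paired analysis was possible because both clones are set against the same 1 mock array.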
